A study of Canis lupus familiaris with 55 samples.

Results

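Transcripts of 10 basement membrane genes were followed in gonads of canine embryos: the laminin alpha chain genes *LAMA1*, *LAMA2*, *LAMA3*, *LAMA4* and *LAMA5*, the beta chain genes *LAMB1* and *LAMB2*, the gamma chain gene *LAMC1*, and the nidogen genes *NID1* and *NID2*. The members were taken as the loci of the authors' transcript assembly that carry one of these gene names in sense orientation, which gave 10 loci among 58781. Each gene had 1 sense locus, and *LAMA1* and *NID1* each had 1 further locus on the opposite strand, which was kept apart. This rule used gene names and no measured value, but the genes were chosen with earlier results of these data known.

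Laminins are secreted heterotrimers of an alpha, a beta and a gamma chain, and they polymerize into the sheet that begins a basement membrane. The alpha chain sets most of the binding to cell receptors, nidogens join the laminin sheet to the type IV collagen network, and integrins and dystroglycan anchor cells to it. In the fetal testis a basement membrane surrounds each cord of Sertoli and germ cells, while in the fetal ovary it lies around the looser ovigerous cords, and in both organs it lines blood vessels and the surface epithelium.

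RNA-seq was done on 55 libraries to compare gonads of embryos at risk of XX disorder of sexual development (DSD), in which testis tissue forms without *SRY*, with gonads of controls. A library held the gonad pair of 1 embryo, apart from a pool of 6 XX and a pool of 7 XY control embryos at day 34 of gestation (d34). Values are FPKM, read fragments counted relative to transcript length and to the depth of the library, as scaled by the authors, so levels of different genes below are per length. Each gonad pair was used up for RNA, so no histology shows the state of the gonads measured, and the risk of XX DSD rests on genotype.

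Embryos of the model pedigree (American cocker spaniel crossed with beagle) carried, on 1 or both chromosomes 9, an insertion that served as the risk marker, and this held for the XY littermates too. Control embryos came from wild-type beagle parents. XX DSD gonads at risk numbered 9 at d35 (4 homozygous, 5 heterozygous), 8 at d37-39 (6 and 2) and 6 at d41-44 (6 and 0). XY littermates numbered 4 at d35 (3 homozygous, 1 heterozygous), 5 at d37-39 (5 and 0) and 3 at d41-44 (1 and 2). Controls were 6 XX and 6 XY embryos at d37-39, and 3 XX and 3 XY embryos at d44. The control embryos of d37, of d39 and of d44 each came from 1 litter, and groups of the model pedigree from 2 to 4 litters, so p-values measure the spread between these embryos, of which several share a litter. Pedigree, litter and sequencing pool differed together between model and control embryos and cannot be told apart. Controls of the oldest age were all of d44, while model gonads were of d41 to d44 (XX) or d41 to d42 (XY). In those comparisons age cannot be told apart from pedigree either. A labelled d41 age was kept for 3 embryos (XX DSD replicates 1 and 2, XY littermate replicate 1 of d41-44) that the study also lists with another age.

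The libraries expressed between 12055 and 12808 named loci at 1 FPKM or more. The sex labels held in every library: *SOX9*, the Sertoli cell factor, lay between 52.5 and 92.8 FPKM in XY and between 0.853 and 10.4 FPKM in XX libraries, and *FOXL2*, the pre-granulosa factor, reached at most 2.68 FPKM in XY and at least 2.87 FPKM in XX libraries. Relative depth, estimated from the smallest steps of the FPKM values, differed up to 7.22 times between libraries. Loci without a gene name at 1 FPKM or more numbered between 6791 and 8633 in 4 libraries (XY control d37-39 replicate 2 and XY littermate d37-39 replicates 3, 4 and 5), against at most 4918 in the others. XX DSD d35 replicate 8 had a median correlation of 0.935 with its group, against 0.957 to 0.971 for the other 8, and XX DSD d37-39 replicates 1 and 2, the embryos of d37, had 0.928 and 0.936 against 0.961 to 0.967 for the other 6.

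Positions are those of the assembly on canFam3. *LAMA1* was at chr7:73282749-73466137 (minus strand), *LAMA2* at chr1:67514264-68100315 (plus), *LAMA3* at chr7:64405533-64655273 (minus) and *LAMA4* at chr12:68533208-68639178 (minus). The *LAMA5* locus, chr24:46314597-46318465 (minus), spanned 3869 bases with a reference model of 11 exons, while the models of *LAMA1* and *LAMA2* held 62 and 65 exons, so its values stand for a piece of the gene. *LAMB1* was at chr18:12614192-12703278 (plus), *LAMC1* at chr7:16406353-16529051 (plus), *NID1* at chr4:3935163-4019163 (plus) and *NID2* at chr8:28236610-28300671 (minus). *LAMB2*, chr20:40031574-40076864 (plus), shared its locus with *USP19* and *CCDC71*, and the *LAMB1* locus held 1 further annotated gene known only by an identifier. Values given for *LAMB2* and *LAMB1* are those of the whole locus, reads of these other genes included. Strand was not kept in the libraries. Exons of opposite-strand genes covered 30.4% of the *LAMB1* exon bases (*DLD*), 20.6% of those of *NID2* (*C14orf166*) and 8.15% of those of *LAMA5* (*ADRM1*), and reads from these stretches cannot be told apart. Median levels over all libraries were 56.3 FPKM for *DLD*, 388 FPKM for *C14orf166* and 82.3 FPKM for *ADRM1*. The levels of *LAMB1*, *NID2* and *LAMA5* may therefore hold reads of these genes.

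Among alpha chains, *LAMA4*, the chain of vessel and mesenchymal basement membranes, gave most of the alpha chain FPKM in XX gonads, and *LAMA1*, an early embryonic and epithelial chain, came close to it or passed it in XY gonads from d37 on. *LAMA4* made up 70.0% ± 5.04 (SD, n = 6) of the summed FPKM of the 5 alpha genes in XX controls at d37-39 and 40.3% ± 3.7 (n = 6) in XY controls. *LAMA1* made up 16.7% ± 1.34 and 49.5% ± 2.53 in the same groups. The *LAMA1* shares of the sexes did not overlap in any of the 5 pairs of groups, and those of *LAMA4* overlapped only at d35, at 41.9% to 78.7% in XX and 49.4% to 65.5% in XY gonads. *LAMA5*, a chain of mature epithelia, gave 11.5% ± 3.98 in XX controls and 5.27% ± 1.8 in XY controls at d37-39. It reached 39.2% in XX DSD d35 replicate 8, which had the lowest *LAMA4* level of its group.

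The d34 pools were single libraries and were not tested. *LAMA1* held 11.9% of the alpha chain FPKM in the XX and 13.7% in the XY pool, with 18.7 and 26.1 FPKM. *LAMA4* stood at 121 and 119 FPKM. *LAMA5* held 10.3% in the XX and 21.9% in the XY pool, and *NID2* was 44.1 and 76 FPKM, so both were higher in the XY pool. So were *LAMA2* (1.85 and 3.19 FPKM), *LAMB1* (185 and 272), *LAMB2* (34.3 and 56.3), *LAMC1* (55 and 80.9) and *NID1* (22.5 and 40.3). *LAMA3* was slightly lower there (0.142 and 0.116 FPKM). The XY pool had the lowest relative depth of all libraries, 0.139. *SOX9* was already at 2.81 and 56.0 FPKM in these pools.

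**Figure D1:**
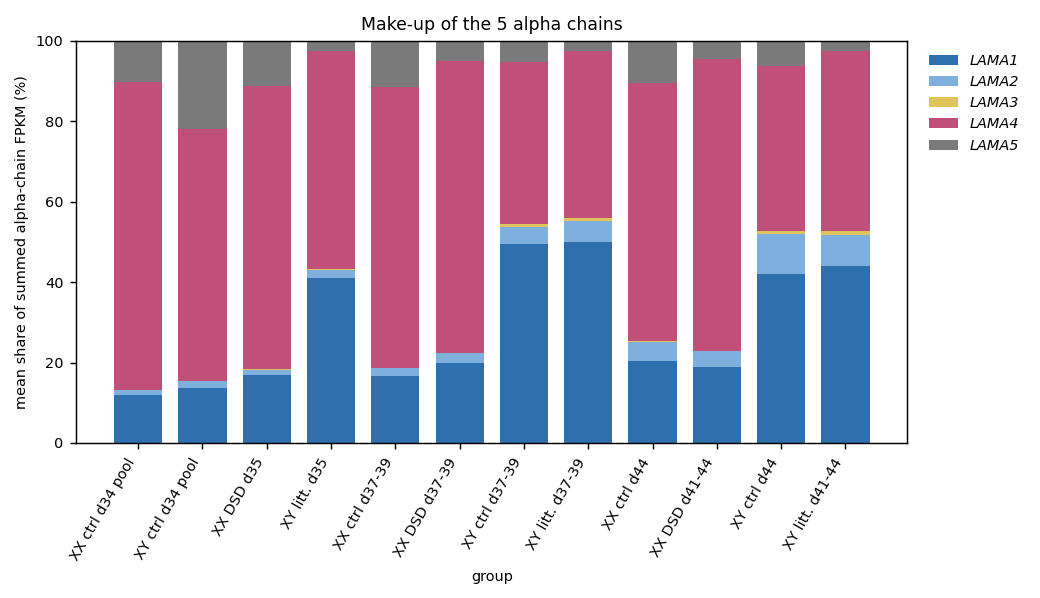
Share of the summed FPKM of *LAMA1* to *LAMA5* held by each gene, in percent, as the mean of each group. *LAMA4* leads in every XX group and *LAMA1* takes 41% to 49.9% in the XY groups of single embryos, against 13.7% in the XY pool of d34.

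**Figure D2:**
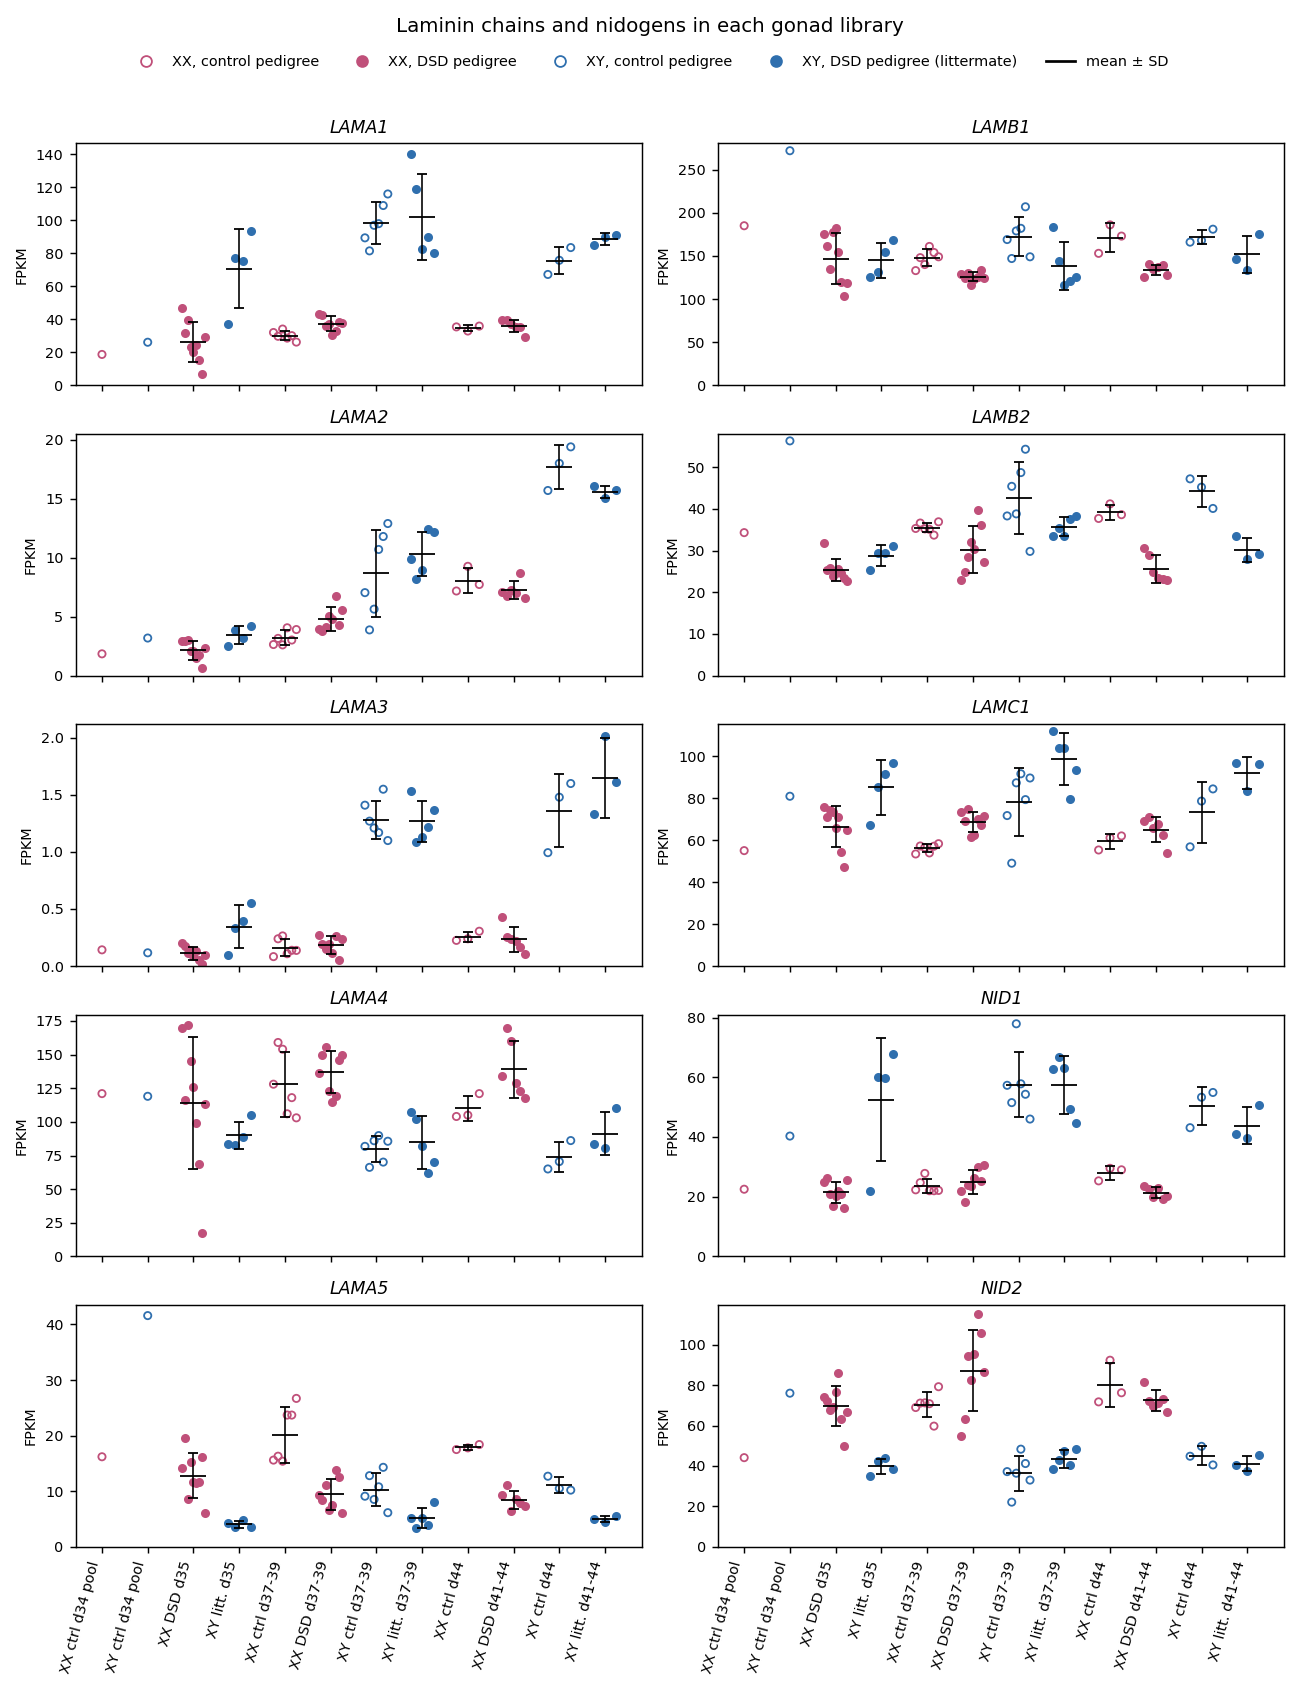
FPKM (linear axes) of each of the 10 genes in every library by group, with XX in red, XY in blue, controls as open and model pedigree as filled points, and bars for mean ± SD. *LAMA1*, *NID1* and *NID2* separate the sexes in the control groups of d37-39 and d44, while *LAMB1* and *LAMB2* overlap.

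Sex was the contrast in which the members differed most often. In controls at d37-39, 8 of 10 members were called at an adjusted p under 0.05, 5 higher and 3 lower in XY, where 26.5% of all 21171 loci tested were called. In controls at d44, 6 of 10 were called (3 higher, 3 lower) against 24.8% of loci. In the model pedigree, 4 of the 9 tested were called at d35 (2 and 2) against 21.4%, 7 of 10 at d37-39 (4 and 3) against 7.49%, and 8 of 10 at d41-44 (5 and 3) against 28.3%. All members are named loci, and over named loci alone 36.6%, 31.4%, 25.2%, 19.9% and 37.8% were called in these 5 comparisons. The median difference over members, XY over XX on the log2(FPKM + 1) scale used for all differences, was 0.34, 0.23, 0.18, 0.38 and 0.36 in these 5 comparisons, beside 0.015, -0.038, 0.049, 0.277 and -0.001 over all loci tested. No embryo is shared between the control and the model comparisons. In bulk tissue, fewer cells of a type and less RNA per cell cannot be told apart.

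Markers of several cell types moved with sex too. The 7 Sertoli cell markers summed to between 1400 and 2610 FPKM in XY and 779 and 1020 FPKM in XX controls at d37-39, with 7 of 7 higher in XY. Per gene, their median log2 difference was 3.31. *SOX9*, which is among them, lay between 1.9 and 4.06 FPKM in these XX controls, so other markers carried most of the sum. The 7 markers of pericytes and smooth muscle summed to between 114 and 162 FPKM in XY and 85.7 and 109 FPKM in XX controls (4 higher, 2 lower), while the 8 endothelial markers spanned 102 to 178 and 129 to 165 FPKM (2 higher, 2 lower). The 8 pre-granulosa markers spanned 19.2 to 30.3 FPKM in XY and 125 to 199 FPKM in XX. The 4 Leydig cell markers spanned 4090 to 7540 FPKM in XY and 388 to 2330 FPKM in XX, and 4 of 4 were higher in XY in each of the 5 sex comparisons. The d37-39 control comparison called 26.5% of all and 36.6% of named loci. The part of these markers in the laminin differences was not tested.

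*LAMA1* had the widest sex difference of the 10 members on the log2(FPKM + 1) scale in controls at d37-39 and at d44. By the ratio of means, *LAMA3* was wider at both ages (7.95 and 5.29), and *LAMA2* marginally so at d44 (2.2 against 2.17). At d37-39 *LAMA1* lay between 26.2 and 34.1 FPKM (median 29.9) in 6 XX controls and between 81.5 and 116 FPKM (median 97.5) in 6 XY controls. Every XY value was above every XX value, and the mean was 3.27-fold higher (log2 difference 1.67, SE 0.09, adjusted p = 3.9e-08, limma). At d44 the XX controls stood at 35.4, 32.9 and 35.9 FPKM and the XY controls at 67.2, 75.8 and 83.5 FPKM, again without overlap (1.09, SE 0.10, adjusted p = 0.00086).

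The same direction held for *LAMA1* in the model pedigree. XX DSD gonads lay between 30.5 and 43.2 FPKM at d37-39 (median 37.4, n = 8), and the XY littermates stood at 140, 119, 82.7, 90.1 and 80.2 FPKM (1.40, SE 0.13, adjusted p = 7.2e-06). At d41-44 the XX DSD range was 29.4 to 39.7 FPKM (median 36.2, n = 6), below the XY littermates at 84.8, 90.2 and 91.2 FPKM (1.28, SE 0.09, adjusted p = 1.5e-05). Neither age showed overlap of the sexes. At d35 the ranges overlapped: XX DSD gonads lay between 7.12 and 47 FPKM (median 24.6, n = 9), and XY littermates stood at 37, 77.2, 75.1 and 93.6 FPKM. Replicate 8 gave the lowest XX value and replicate 1 the lowest XY value. The d35 difference was 1.47 (SE 0.39, adjusted p = 0.017) and was lost without XY replicate 2, 3 or 4 (adjusted p 0.056, 0.056 and 0.068).

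*LAMA2*, the chain of muscle and nerve basement membranes, was also higher in XY gonads from d37 on. At d37-39 the XX controls lay between 2.61 and 4.06 FPKM (median 3.09) and the XY controls between 3.88 and 12.9 FPKM (median 8.88), and only the lowest XY embryo fell within the XX range (1.11, SE 0.24, adjusted p = 0.0035). At d44 the XX values were 7.18, 9.27 and 7.73 FPKM and the XY values 15.7, 18 and 19.4 FPKM (1.05, SE 0.12, adjusted p = 0.002). In the model pedigree the difference was 0.96 (SE 0.14, adjusted p = 0.00049) at d37-39 and 1.02 (SE 0.08, adjusted p = 3.1e-05) at d41-44, with no overlap at either age. At d35 it was 0.53 (SE 0.22, adjusted p = 0.11), with XX values between 0.634 and 2.99 and XY values between 2.5 and 4.24 FPKM.

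*LAMA3*, the chain of skin-type basement membranes, stayed low in both sexes. XX controls at d37-39 lay between 0.0825 and 0.264 FPKM and XY controls between 1.1 and 1.55 FPKM, so the sexes were apart (0.97, SE 0.16, adjusted p = 0.00061), though the call was lost with d39 embryos alone (adjusted p = 0.095). The added 1 FPKM compresses this difference, and the ratio of the means was 7.95. At d44 the XX controls had 0.225, 0.239 and 0.305 FPKM and the XY controls 0.994, 1.48 and 1.6 FPKM (0.90, SE 0.27, adjusted p = 0.062). Among littermates, *LAMA3* was called at d41-44 (1.10, SE 0.23, adjusted p = 0.0065) and not at d37-39 (0.94, SE 0.31, adjusted p = 0.11), although the groups did not overlap at either age. The d37-39 difference was called with a pseudocount of 0.1 (2.31, adjusted p = 0.024), without the filter (adjusted p = 0.037), without the trend (adjusted p = 0.00013), with 1 spread shared by all 10 groups (adjusted p = 2.6e-08) and over named loci (adjusted p = 0.00012). It was under the 1 FPKM filter in both sexes at d35 and was not tested there.

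*LAMA4* moved the other way. At d37-39 it lay between 103 and 159 FPKM (median 123) in XX and between 66.2 and 89.8 FPKM (median 83.7) in XY controls, with no overlap (-0.66, SE 0.12, adjusted p = 0.0013), and the difference was -0.41 (adjusted p = 0.082) with d39 embryos alone. At d44 it stood at 104, 105 and 121 FPKM in XX and at 65, 70.5 and 86.1 FPKM in XY controls (-0.57, SE 0.13, adjusted p = 0.023), and this call was lost in 4 of 6 refits that left out 1 library (XX replicate 1, 2 or 3 or XY replicate 2, adjusted p up to 0.092). Littermates showed -0.71 (SE 0.13, adjusted p = 0.0027) at d37-39, which was -0.38 (adjusted p = 0.13) without the 4 libraries with many unnamed loci, and -0.60 (SE 0.14, adjusted p = 0.012) at d41-44, lost in 2 of 9 such refits (without XY replicate 1 or 2, adjusted p 0.053 and 0.055) and without the 3 embryos of uncertain age (-0.48, adjusted p = 0.12). With 1 spread shared by all 10 groups, the *LAMA4* call was lost in the control comparisons (adjusted p 0.063 and 0.32) and at d41-44 (adjusted p 0.2). At d35 the XX range of 17.2 to 172 FPKM (median 116, lowest in replicate 8) covered all 4 XY values of 83.4, 82.9, 88.8 and 105 FPKM (-0.13, SE 0.47, adjusted p = 0.86).

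*LAMA5* was lower in XY in all 5 tested comparisons, while the untested d34 pools stood at 16.2 FPKM (XX) and 41.6 FPKM (XY). In controls it spanned 15.4 to 26.7 FPKM (median 20) in XX and 6.14 to 14.3 FPKM (median 9.93) in XY at d37-39 (-0.92, SE 0.20, adjusted p = 0.0034). At d44 the XX values were 17.5, 17.8 and 18.4 FPKM and the XY values 12.7, 10.5 and 10.2 FPKM (-0.64, SE 0.10, adjusted p = 0.0055), and neither age showed overlap. The model pedigree gave -1.39 at d35 (SE 0.22, adjusted p = 0.00068), where XX DSD gonads lay between 6.16 and 19.5 FPKM (median 11.7) and XY littermates at 4.37, 3.5, 4.81 and 3.6 FPKM. At d37-39 the ranges overlapped (6.02 to 13.8 against 3.33 to 8.12 FPKM), and the call (-0.77, SE 0.21, adjusted p = 0.043) was lost in 10 of 13 refits without 1 library (all but those without XX DSD replicate 4 or 8 or XY littermate replicate 5), the highest adjusted p being 0.13, and with d39 embryos alone (adjusted p = 0.14). At d41-44 the difference was -0.62 (SE 0.14, adjusted p = 0.011), and -0.50 (adjusted p = 0.055) without the 3 embryos of uncertain age. With 1 spread shared by all 10 groups the call was lost in controls at d44 (adjusted p = 0.097) and at d41-44 (adjusted p = 0.056). *ADRM1*, which shares exon bases with this locus, differed the other way between the sexes at d35 (0.69, SE 0.13, adjusted p = 0.0024) and d41-44 (0.42, SE 0.07, adjusted p = 0.003).

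The beta chains, which pair with alpha and gamma chains in most laminins, gave no sex call in the 5 comparisons as fitted over all embryos. *LAMB1*, the most abundant member per length in most groups, lay between 133 and 161 FPKM in XX and 147 and 207 FPKM in XY controls at d37-39 (0.21, SE 0.09, adjusted p = 0.094). This difference passed the threshold without XY control replicate 2 (0.26, adjusted p = 0.037) or replicate 6 (0.25, adjusted p = 0.038). At d44 the *LAMB1* values were 153, 186 and 173 FPKM in XX and 166, 168 and 181 FPKM in XY controls, a difference of 0.01 (SE 0.10). *LAMB2* lay between 33.7 and 36.9 FPKM in XX and 29.8 and 54.3 FPKM in XY controls at d37-39 (0.23, SE 0.12, adjusted p = 0.19), and passed without XY control replicate 6 (0.33, adjusted p = 0.012). Its sex difference in the other 4 comparisons was between 0.17 and 0.25, with overlapping ranges, and passed at d35 without XX DSD replicate 1 (0.22, adjusted p = 0.043), at d41-44 without the 3 embryos of uncertain age (0.27, adjusted p = 0.031) and at d37-39 with 1 spread shared by all 10 groups (adjusted p = 0.048). *LAMB1* between littermates at d37-39 went from 0.11 to 0.37 (adjusted p = 0.04) without the 4 libraries with many unnamed loci.

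*LAMC1*, the gamma chain of the classical laminins, was modestly higher in XY. XX controls at d37-39 lay between 53.4 and 58.3 FPKM (median 56.8) and XY controls between 49 and 91.6 FPKM (median 83.3). A single XY embryo (replicate 2, one of the 4 libraries with many unnamed loci) was below the XX range and the other 5 were above it (0.44, SE 0.13, adjusted p = 0.023), and the call was lost without XY replicate 3 or 4 (adjusted p 0.052 in each). Littermates showed 0.51 (SE 0.08, adjusted p = 0.00089) at d37-39 and 0.50 (SE 0.09, adjusted p = 0.0035) at d41-44, with no overlap. At d44 in controls the difference was 0.28 (SE 0.16, adjusted p = 0.26) and at d35 it was 0.35 (SE 0.14, adjusted p = 0.079). Each passed without XY replicate 1 of its own group (0.45, adjusted p = 0.014 and 0.46, adjusted p = 0.032).

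The nidogens moved in opposite directions. *NID1* lay between 22 and 27.8 FPKM (median 22.2) in XX and between 46 and 77.9 FPKM (median 55.8) in XY controls at d37-39 (1.24, SE 0.11, adjusted p = 3.3e-06). *NID2* lay between 59.7 and 79.2 FPKM (median 71) in XX and between 22.1 and 48.3 FPKM (median 36.8) in XY controls (-0.96, SE 0.15, adjusted p = 0.00032). Neither gene showed overlap of the sexes.

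At d44 the XX controls had 25.3, 29.5 and 29 FPKM of *NID1* and the XY controls 43.1, 53.3 and 54.9 FPKM (0.82, SE 0.12, adjusted p = 0.0047). *NID2* stood at 71.7, 92.3 and 76.2 FPKM in XX and at 44.8, 49.7 and 40.5 FPKM in XY controls (-0.81, SE 0.13, adjusted p = 0.0062). Both genes were again apart between the sexes. In the model pedigree the *NID1* difference was 1.14 (SE 0.24, adjusted p = 0.0041), 1.17 (SE 0.13, adjusted p = 3.2e-05) and 0.99 (SE 0.10, adjusted p = 1e-04) at d35, d37-39 and d41-44. The *NID2* difference was -0.78 (SE 0.12, adjusted p = 0.00046), -0.96 (SE 0.16, adjusted p = 0.0011) and -0.80 (SE 0.08, adjusted p = 8.9e-05). The only overlap was *NID1* at d35, where XY littermate replicate 1 had 21.9 FPKM beside 60.1, 59.7 and 67.8 FPKM in the other 3 and 16.2 to 26.1 FPKM in XX DSD gonads. *C14orf166*, which overlaps *NID2* exons, showed no sex call in these comparisons (differences between -0.12 and 0.09).

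Within a library, where scaling cancels, *NID2* over *NID1* was 3.01 ± 0.369 (SD, n = 6) in XX and 0.643 ± 0.163 (n = 6) in XY controls at d37-39. It was 2.86 ± 0.25 and 0.903 ± 0.153 (n = 3 each) at d44. XX DSD gonads had ratios of 3.28 ± 0.529 (n = 9), 3.49 ± 0.57 (n = 8) and 3.39 ± 0.246 (n = 6) at d35, d37-39 and d41-44, and their XY littermates 0.902 ± 0.474 (n = 4), 0.783 ± 0.191 (n = 5) and 0.942 ± 0.0458 (n = 3). The lowest XX ratio of any single embryo was 2.52 and the highest XY ratio was 1.61. The d34 pools gave 1.96 (XX) and 1.89 (XY). Any reads of *C14orf166* within the *NID2* value do not cancel in this ratio.

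**Figure D3:**
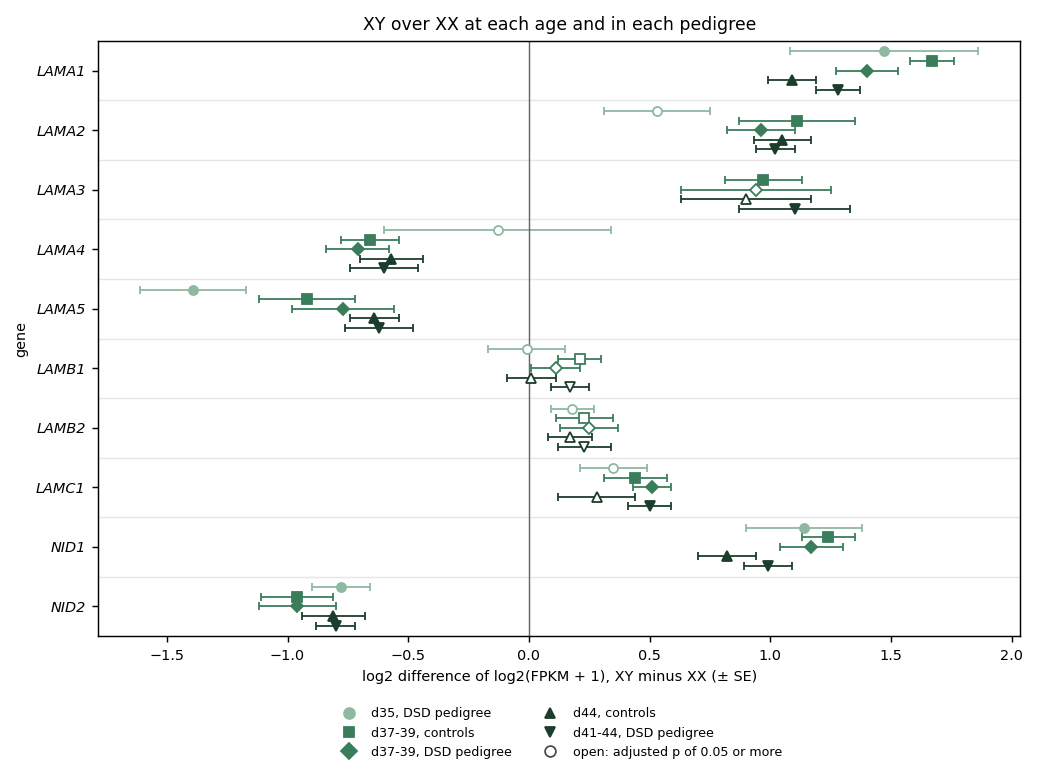
Log2 difference XY over XX of each member (points, with SE) in the 5 sex comparisons, with called differences marked. *LAMA1*, *LAMA2* and *NID1* sit above 0 and *LAMA5* and *NID2* below 0 in each comparison, while *LAMB1* and *LAMB2* stay between -0.01 and 0.25.

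The sex differences themselves were compared between pedigrees and ages. The interaction of sex and pedigree called 0 of 10 members at d37-39 and 0 of 10 at d41-44 (limma, with 0 members at an unadjusted p under 0.05 in each), where 0.00514% and 0.115% of loci were called. The *LAMA1* sex difference was 0.27 smaller in the model pedigree at d37-39 (SE 0.17) and 0.19 larger at d41-44 (SE 0.14). The interaction of sex and age in controls called 0 of 10 members (limma, with 2 at an unadjusted p under 0.05) against 0.335% of loci. Those 2 were *LAMA1*, whose sex difference was smaller at d44 by 0.58 (SE 0.15, adjusted p = 0.11), and *NID1*, smaller by 0.42 (SE 0.18, adjusted p = 0.44).

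Age was followed within each sex and pedigree, and *LAMA2* was the member called most often. From d37-39 to d44, 1 of 9 tested members was called in XX controls, against 2.61% of loci, and 0 of 10 in XY controls (limma, with 2 at an unadjusted p under 0.05), against 0.138% of loci. From d35 to d37-39, 1 of 9 was called in XX DSD gonads, against 4.87% of loci, and 2 of 10 in XY littermates, against 11.5% of loci.

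*LAMA2* rose from 3.23 ± 0.622 FPKM (SD, n = 6) at d37-39 to 8.06 ± 1.08 FPKM (n = 3) at d44 in XX controls (1.10, SE 0.13, adjusted p = 0.0067). In XY controls the means were 8.68 ± 3.67 FPKM (n = 6) and 17.7 ± 1.86 FPKM (n = 3). The groups did not overlap, but the difference missed the threshold (1.05, SE 0.32, adjusted p = 0.32) unless 1 spread was shared by all 10 groups (adjusted p = 0.0058). It rose from d35 to d37-39 in XX DSD gonads, from 0.634 to 2.99 (median 2.1) to 3.76 to 6.78 FPKM (median 4.52) (0.91, SE 0.16, adjusted p = 0.0036), and in XY littermates, from 2.5 to 4.24 (median 3.5) to 8.17 to 12.4 FPKM (median 9.87) (1.35, SE 0.17, adjusted p = 0.0018). The ages did not overlap in either.

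Day by day, *LAMA2* in XY controls stood at 7.04, 3.88 and 5.64 FPKM at d37, at 10.7, 11.8 and 12.9 FPKM at d39 and at 15.7, 18 and 19.4 FPKM at d44. XX controls stood at 2.64, 3.16 and 2.61 FPKM, then 4.06, 3.02 and 3.91 FPKM, then 7.18, 9.27 and 7.73 FPKM. The sexes did not overlap on any of these 3 days, so the overlap in the joined d37-39 groups came from setting embryos of d37 beside embryos of d39. Each of these days is a single control litter, so day and litter cannot be told apart. In the model pedigree, XX DSD gonads at d41 to d44 lay between 6.58 and 8.74 FPKM and their XY littermates at d41 and d42 between 15.1 and 16.1 FPKM.

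**Figure D4:**
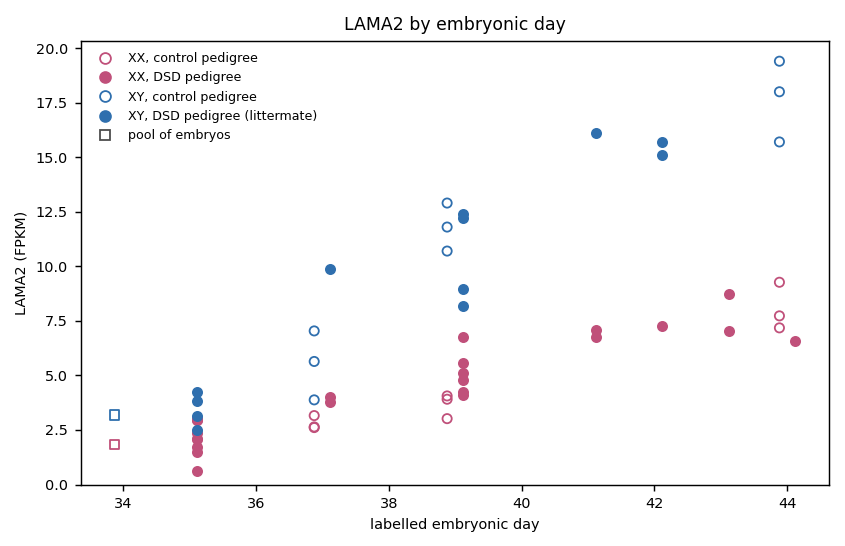
*LAMA2* FPKM in each library against labelled day of gestation (linear axes), with XX in red, XY in blue, controls open and model pedigree filled. XX controls lie at 1.85 FPKM in the d34 pool, between 2.61 and 4.06 FPKM at d37 and d39 and between 7.18 and 9.27 FPKM at d44. XY controls lie above the XX controls on each day.

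*LAMB2* was the other member called over time: in XY littermates it stood at 25.3, 29.4, 29.4 and 31.2 FPKM at d35 and between 33.4 and 38.3 FPKM at d37-39 (0.30, SE 0.07, adjusted p = 0.031). The groups did not overlap, but the call was lost without the 4 libraries with many unnamed loci (adjusted p = 0.15), of which 3 are in the later group, with litter as a random block (adjusted p = 0.076), and on leaving out any of 6 single libraries (XY littermate d35 replicate 1, 2 or 3 or d37-39 replicate 2, 4 or 5). *LAMA3* in the same groups went from between 0.0962 and 0.553 FPKM to between 1.09 and 1.53 FPKM, without overlap (0.76, SE 0.37, adjusted p = 0.31). This rise passed without the trend (adjusted p = 0.021), with 1 spread shared by all 10 groups (adjusted p = 2.6e-05) and over named loci (adjusted p = 0.007). No further member was called over time in these fits. With d39 embryos alone, *LAMA5* in XX controls (-0.44, adjusted p = 0.04) and *LAMB2* (0.34, adjusted p = 0.034) and *NID2* (0.47, adjusted p = 0.015) in XX DSD gonads passed. With the shared spread, *LAMA1* in XX DSD gonads passed (0.63, adjusted p = 0.015). *LAMA1* showed 0.20 (SE 0.08) in XX and -0.37 (SE 0.13) in XY controls from d37-39 to d44.

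XX DSD gonads at risk were compared with XX controls. These comparisons use the same control embryos as the sex and age comparisons above, and model gonads of d41-44 are set against controls of d44. At d37-39, 5 of 9 members were called (3 higher, 2 lower) against 13.8% of loci (22.1% of named loci). That count was 2 with litter as a random block, 1 with 1 spread shared by all 10 groups and 3 without XX control replicate 2 or 5. At d41-44, 5 of 9 were called (1 higher, 4 lower) against 48.5% of loci (64.2% of named loci), so the members' share was close to the background, and 3 were called with the shared spread. XY littermates against XY controls gave 0 of 10 at d37-39 (limma, with 3 at an unadjusted p under 0.05), against 1.29% of loci, and 2 of 10 at d41-44 (both lower), against 11.2% of loci. *LAMA3* was under the filter in the XX comparisons.

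*LAMA5* was lower in model gonads of both sexes. At d37-39 XX DSD gonads lay between 6.02 and 13.8 FPKM (median 8.86) and XX controls between 15.4 and 26.7 FPKM (median 20) (-1.04, SE 0.19, adjusted p = 0.0026). At d41-44 the XX DSD range was 6.42 to 11.1 FPKM (median 8.26), against 17.5, 17.8 and 18.4 FPKM in XX controls (-1.02, SE 0.13, adjusted p = 0.00021). No XX DSD value reached the lowest XX control value at either age. XY littermates at d41-44 stood at 5.05, 4.53 and 5.62 FPKM and XY controls at 12.7, 10.5 and 10.2 FPKM (-1, SE 0.13, adjusted p = 0.028). That XY call was lost in 4 of 6 refits without 1 library (without XY littermate replicate 1 or 2, or XY control replicate 1 or 2, adjusted p up to 0.12). At d37-39 the XY difference was -0.88 (SE 0.23, adjusted p = 0.09), with ranges of 3.33 to 8.12 and 6.14 to 14.3 FPKM that overlapped, and it passed without XY control replicate 6 (adjusted p = 0.02).

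*LAMB2*, read over a locus that also holds *USP19* and *CCDC71*, was lower at d41-44 in both sexes. It stood at 23 to 30.5 FPKM (median 24.1) in XX DSD gonads against 37.7, 41.2 and 38.6 FPKM in XX controls (-0.60, SE 0.10, adjusted p = 0.00075). XY littermates had 33.5, 28 and 29.2 FPKM against 47.2, 45.2 and 40.1 FPKM (-0.53, SE 0.12, adjusted p = 0.043), without overlap in either sex. The XY call was lost without any of 5 single libraries (all but XY control replicate 3, adjusted p up to 0.15). At d37-39 the XX difference was -0.24 (SE 0.10, adjusted p = 0.15), and it passed without XX DSD replicate 6 (-0.30, adjusted p = 0.037).

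Over named loci of the whole genome, the difference between model and control gonads varied with the number of named loci nearby. *LAMA5* had 24 and *LAMB2* had 31 named loci within 0.5 Mb, more than 74.4% and 82.8% of named loci, while *LAMA1* had 4 and *LAMA2* had 3. At d41-44 the median difference of the 20% of named loci in the densest surroundings was -0.59 in XX and -0.48 in XY gonads, and that of the 20% in the sparsest was 0.17 and 0.23. At d37-39 the same medians were -0.22 and -0.21 for the densest and 0.10 and 0.12 for the sparsest. These medians cover the whole genome, and *LAMA5* itself fell below the densest 20%. Relative depth was 0.259 to 0.324 in model gonads of d41-44 and 0.402 to 0.823 in controls of d44. *ADRM1*, which overlaps *LAMA5*, was lower too at d41-44 (-0.79, SE 0.06, adjusted p = 1.2e-05 in XX and -0.64, SE 0.14, adjusted p = 0.043 in XY). The part of these in the *LAMA5* and *LAMB2* values was not tested.

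*LAMB1* was slightly lower in XX DSD gonads, at 116 to 134 FPKM (median 125) against 133 to 161 FPKM (median 149) at d37-39 (-0.23, SE 0.05, adjusted p = 0.0083) and at 126 to 141 FPKM (median 136) against 153, 186 and 173 FPKM at d41-44 (-0.34, SE 0.07, adjusted p = 0.002). The ranges overlapped slightly at d37-39 and were apart at d41-44. The d37-39 call was lost with litter as a random block (adjusted p = 0.06) and with the shared spread (adjusted p = 0.13). *DLD*, whose exons overlap those of *LAMB1*, moved the other way at d41-44 (0.42, SE 0.03, adjusted p = 1.4e-05). *LAMC1* was higher at d37-39, at 61.6 to 74.7 FPKM (median 69.6) against 53.4 to 58.3 FPKM, with no overlap (0.29, SE 0.05, adjusted p = 0.0025), and stood at 0.12 (SE 0.08, adjusted p = 0.27) at d41-44. Its d37-39 call was lost with the shared spread (adjusted p = 0.056). The ratio of *LAMB1* to *LAMC1* within a library was 2.63 ± 0.186 (SD, n = 6) in XX controls and 1.84 ± 0.101 (n = 8) in XX DSD gonads at d37-39, and 2.87 ± 0.157 (n = 3) and 2.08 ± 0.187 (n = 6) at d41-44. The ratio was lower in XY model gonads too: 2.28 ± 0.48 (n = 6) in XY controls and 1.4 ± 0.198 (n = 5) in XY littermates at d37-39. At d41-44 the XY ratios were 2.4 ± 0.448 and 1.65 ± 0.158 (n = 3 each). XY littermates differed from XY controls by -0.33 and -0.18 for *LAMB1* and by 0.35 and 0.34 for *LAMC1* at d37-39 and d41-44, without a call.

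The remaining pedigree calls in XX gonads were small. At d37-39 *LAMA1* was higher by 0.30 (SE 0.08, adjusted p = 0.025) and *LAMA2* by 0.45 (SE 0.12, adjusted p = 0.027), with overlapping ranges. *LAMA1* lost its call without XX control replicate 2, 4, 5 or 6, and *LAMA2* without replicate 1, 2, 3 or 5. Both lost it with litter as a random block (adjusted p 0.088 and 0.13) and with the shared spread (adjusted p 0.3 and 0.065). At d41-44 *NID1* was lower, at 19.3 to 23.7 FPKM (median 21.4) against 25.3, 29.5 and 29 FPKM (-0.37, SE 0.08, adjusted p = 0.0041), with no overlap. The *NID1* call was lost with the shared spread (adjusted p = 0.14). *LAMA4* was higher (0.33, SE 0.12, adjusted p = 0.049), with ranges of 118 to 170 and 104 to 121 FPKM, and lost its call in 7 of 9 refits without 1 library (all but those without XX DSD replicate 5 or 6, adjusted p up to 0.15) and with the shared spread (adjusted p = 0.45). *NID2* gave 0.28 (SE 0.15, adjusted p = 0.26) and -0.14 (SE 0.09, adjusted p = 0.23) at d37-39 and d41-44, and the first was 0.46 (adjusted p = 0.046) with d39 embryos alone. *C14orf166*, which overlaps *NID2* exons, was higher at d41-44 (0.31, SE 0.08, adjusted p = 0.01).

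Cell type markers also differed between XX DSD gonads and XX controls at d41-44. The 8 pre-granulosa markers summed to between 93 and 128 FPKM in XX DSD gonads (median 107), below all 3 XX controls (median 230), with 5 of 8 lower, in a comparison that called 48.5% of all and 64.2% of named loci. The 8 endothelial markers spanned 146 to 162 FPKM (median 155), below the XX controls (median 198), with 6 of 8 lower, and the 7 markers of pericytes and smooth muscle 81 to 96.6 and 117 to 155 FPKM (5 of 7 lower). The 7 Sertoli markers spanned 476 to 778 and 885 to 945 FPKM (2 of 6 tested lower), while *SOX9* among them stood at 3.27 to 4.28 and 3.73 to 4.28 FPKM. Their part in the member differences was not tested.

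**Figure D5:**
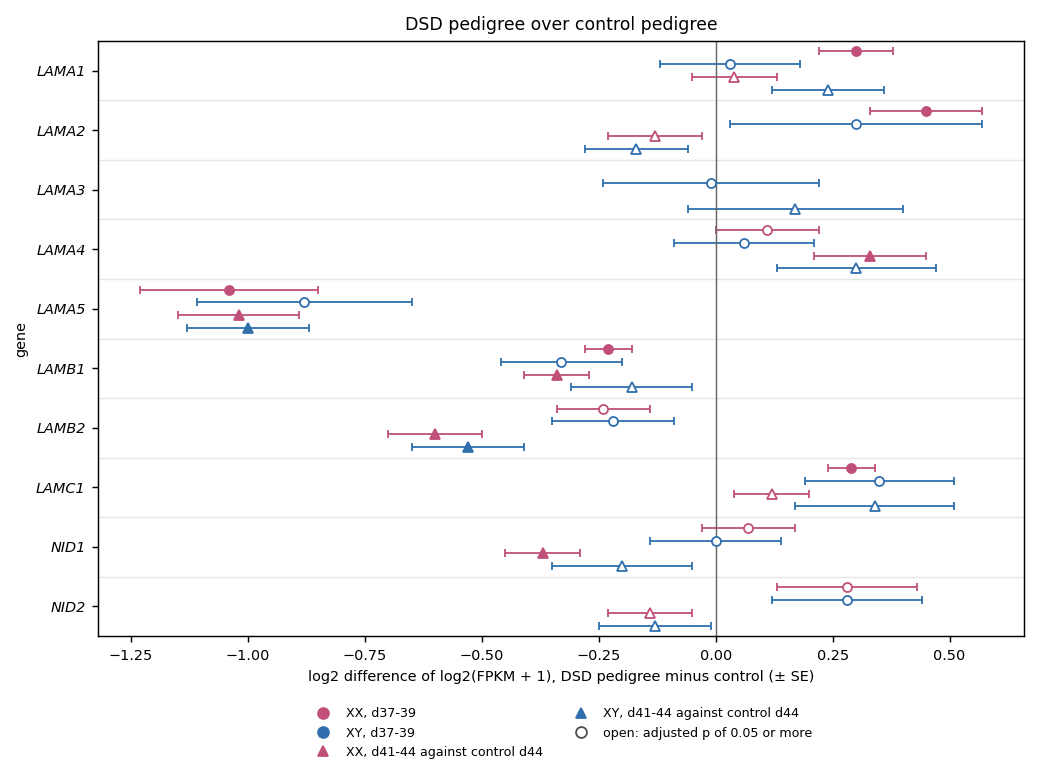
Log2 difference of model over control gonads of each member (points, with SE) in XX and XY gonads at both ages, with called differences marked. *LAMA5* lies between -0.88 and -1.04 in the 4 comparisons and *LAMB2* at -0.60 and -0.53 at d41-44.

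Other laminin chains were read in the same way. *LAMC3*, a gamma chain of vessel and peripheral basement membranes, was higher in XY in all 5 sex comparisons. It had ranges of 22.4 to 39.7 FPKM (median 27.7) in XX and 44.3 to 105 FPKM (median 71.1) in XY controls at d37-39 (1.28, SE 0.21, adjusted p = 0.00048). At d44 the controls spanned 36.4 to 46.3 FPKM and 126 to 189 FPKM (1.84, SE 0.18, adjusted p = 0.0011), so *LAMC3* passed *LAMC1* in XY controls at that age. *LAMC3* was lower in model gonads at d41-44, by 0.57 in XX (-0.57, SE 0.16, adjusted p = 0.015) and by 1.08 in XY (-1.08, SE 0.17, adjusted p = 0.029). *LAMB3*, the beta partner of *LAMA3*, was higher in XY wherever it was tested, with means of 0.695 FPKM in XX and 5.24 FPKM in XY controls at d37-39 (1.79, SE 0.23, adjusted p = 7.8e-05). *LAMB4* stayed under the filter.

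Of 23 other basement membrane components, 21 were tested between XX and XY controls at d37-39, where 11 were higher and 4 lower in XY (median 0.49, against 0.015 over all loci). At d44, 8 were higher and 5 lower of 23. Between littermates, 6 were higher and 3 lower of 20 at d35, 4 higher and 3 lower of 23 at d37-39, and 9 higher and 4 lower of 23 at d41-44. Over named loci, 36.6% and 31.4% were called between controls at these ages, and 25.2%, 19.9% and 37.8% between littermates. *FREM1*, a Fraser complex protein, had a mean of 27.7 FPKM in XX and 4.17 FPKM in XY controls at d37-39 (-2.47, SE 0.13, adjusted p = 2.3e-08), and *NTN4*, a netrin that binds laminin gamma chains, means of 0.758 and 8.19 FPKM (2.34, SE 0.17, adjusted p = 5.1e-07). *SMOC1* (1.28, SE 0.10, adjusted p = 1.1e-06) and *SPARC* (1.82, SE 0.17, adjusted p = 4.8e-06), matrix calcium-binding proteins, were higher in XY as well.

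Between XX DSD gonads and XX controls, 1 of the 23 was higher and 4 lower at d37-39, and 5 were higher and 13 lower at d41-44 (median -0.47, against -0.089 over all loci), beside 22.1% and 64.2% of named loci called at these ages. The type IV collagen chains *COL4A1* and *COL4A2*, the network to which nidogens join laminin, were lower at d41-44, with means of 101 FPKM against 209 FPKM (-1.05, SE 0.09, adjusted p = 2.4e-05) and 82.6 FPKM against 157 FPKM (-0.93, SE 0.07, adjusted p = 1.5e-05). In XX controls both had risen from d37-39 to d44, by 0.65 (SE 0.09, adjusted p = 0.014) and 0.57 (SE 0.06, adjusted p = 0.005). *PXDN*, the peroxidase that crosslinks type IV collagen, was lower in XX DSD gonads at both ages (-0.36, SE 0.08, adjusted p = 0.0062 and -0.73, SE 0.07, adjusted p = 4e-05). Its difference between XY littermates and XY controls at d37-39 was -0.58, without a call (SE 0.14, adjusted p = 0.068). Among XY littermates, 1 of the 23 components was lower at d37-39, and 2 were higher and 6 lower at d41-44, where 2.25% and 15.2% of named loci were called.

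All 15 measured receptors were tested. Between controls, 6 were higher and 1 lower in XY at d37-39, and 5 higher and 2 lower at d44. Between littermates, 4 were higher and 1 lower at d35 and again at d37-39, and 8 higher and 2 lower at d41-44. Shares of named loci called were 36.6% and 31.4% between controls, and 25.2%, 19.9% and 37.8% between littermates. *ITGA6*, the alpha subunit of laminin-binding integrins, lay between 9.35 and 15.3 FPKM in XX and 110 and 250 FPKM in XY controls at d37-39 (3.62, SE 0.18, adjusted p = 1.8e-08), and between 10.3 and 14.3 and 62.5 and 116 FPKM at d44 (2.77, SE 0.25, adjusted p = 0.00088). *ITGA7*, another laminin-binding alpha subunit, went the other way (-1.44, SE 0.17, adjusted p = 3.1e-05, and -1.99, SE 0.16, adjusted p = 0.00049). *DAG1*, which encodes dystroglycan, was higher in XY at d37-39 (0.59, SE 0.10, adjusted p = 0.00085). Between XX DSD gonads and XX controls, 2 receptors were higher and 2 lower at d37-39, where 13.8% of all and 22.1% of named loci were called, and 4 higher and 7 lower at d41-44, against 48.5% and 64.2%. *BCAM*, a receptor for the laminin alpha 5 chain, was lower at both ages (-0.52, SE 0.14, adjusted p = 0.021 and -1.22, SE 0.09, adjusted p = 1e-05). *ITGB1*, the common beta subunit of these integrins, was higher at d41-44 (0.64, SE 0.05, adjusted p = 1.4e-05). *BCAM* was also lower in XY littermates than in XY controls, called at d41-44 (-0.83, SE 0.20, adjusted p = 0.048) and not at d37-39 (-0.67, SE 0.18, adjusted p = 0.11).

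Correlations were taken over the 53 libraries of single embryos, which share sex, pedigree and litter. Pearson's r of log2(FPKM + 1), given without a test, was 0.89 between *LAMA1* and *NID1*, 0.86 between *LAMA1* and *LAMA3* and 0.84 between *LAMA3* and *NID1*. It was 0.56 between *LAMA4* and *NID2*, -0.69 between *NID1* and *NID2* and -0.68 between *LAMA1* and *NID2*. The loci most like *LAMA1* were *LRP8* (0.97), *PRLR* (0.96) and *RAPGEF5* (0.96). Those most like *NID1* were *PRRG3* (0.96), *HES4* (0.95) and *ANGPTL2* (0.94), and those most like *NID2* were *COL5A2* (0.92), *NR2F2* (0.89) and *MOB3B* (0.89). *LAMA2* was closest to *COBLL1* (0.92), *SPATS2L* (0.91) and *FGF13* (0.89), and *LAMA3* to *KAT2B* (0.96), *SPOCD1* (0.95) and *LRAT* (0.95). *LAMA4*, *LAMA5* and *LAMC1* had weaker closest loci, led by *MARK1*, *ZNF503* and *NPC1* (0.87, 0.87 and 0.86).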

How the data were processed

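Gonad RNA of 55 libraries (53 single embryos and 2 pools) was measured by RNA-seq without strand information, and groups came from the sample labels. Per the submitters' processing notes, the authors used cutadapt 1.5, TopHat2 2.0.13 and Cufflinks 2.2.1 with canFam 3, and the deposited FPKM table was scaled across libraries by Cuffnorm. Read counts were not analysed here, so depth is known only relative to the deepest library, from the steps between values up to 0.15 FPKM.

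Of 58781 loci, those averaging 1 FPKM or more in one or both groups compared were tested as log2(FPKM + 1) in limma 3.58.1 (R 4.3.3, data.table version 1.17.8) with a moderated two-sided test and a mean-variance trend, each comparison on its own groups. P-values were adjusted by Benjamini-Hochberg over all loci tested, and adjusted p under 0.05 was called. Fold differences on this scale understate those of low genes. The 16 comparisons were 5 of sex, 4 of pedigree, 4 of age and 3 interactions. The pools entered no test. The script was tested on simulated data.

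All 10 members are named. From lists of other laminins, basement membrane components and receptors, at most 4 genes per list and comparison with the lowest adjusted p are named. *LAMC3*, *LAMB3* and *ITGA6* ranges, *SOX9* and *FOXL2* were added after values were seen. For likeness, the 3 single-gene loci with the highest r are listed for members with a locus of their own. The members and lists were chosen with earlier results of these data known. Alternatives covered the pseudocount, filter, trend, scaling, a shared spread, litter, age and each library left out. The result for 1 listed gene is not reported here.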

Additional observations from a re-analysis of the deposited data

Results flagged for a closer look

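Dixon's test at the 95% level marked 3 single values among 70 pairs of a member and a group of 4 to 10 embryos, where chance marks about 1 in 20. *LAMB2* was 31.7 FPKM in XX DSD d35 replicate 1 and 22.8 to 25.9 FPKM in the other 8 embryos. *NID1* was 77.9 FPKM in XY control d37-39 replicate 3 and 46 to 57.8 FPKM in the other 5. *LAMA2* was 8.74 FPKM in XX DSD d41-44 replicate 5 and 6.58 to 7.28 FPKM in the other 5. The 3 values came from 3 different embryos, and none from XX DSD d35 replicate 8.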

How the results depend on the processing

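No called difference of a member changed sign under any alternative run, while differences near 0 that were not called did so in some fits. Counts of members called moved by over 1.5 times in 15 of 132 fits other than those leaving out 1 library. For XX DSD over XX controls at d37-39 the 5 calls became 1 with 1 spread shared by 10 groups and 2 with litter as a random block (estimated correlation 0.34), and at d41-44 the 5 became 3 with the shared spread. For XY littermates over XY controls at d37-39 the 0 calls became 3 with the shared spread and 1 over named loci only. At d41-44 the 2 calls became 0 without the filter, 1 after rescaling to 1 median over named loci, 0 without the trend and 0 without the 3 embryos of uncertain age. Over time, the 1 call in XX controls became 2 with d39 embryos alone, the 0 in XY controls became 1 with the shared spread, the 1 in XX DSD gonads became 2 with the shared spread and 3 with d39 embryos alone, and the 2 in XY littermates became 1 with litter as a block and 1 without the 4 libraries with many unnamed loci. The cause was not tested.

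Leaving out 1 library gave 7 to 10 sex calls in controls at d37-39, 5 to 7 at d44, and 3 to 5, 6 to 7 and 7 to 8 between littermates at d35, d37-39 and d41-44. It gave 3 to 6 (XX, d37-39), 4 to 6 (XX, d41-44), 0 to 1 (XY, d37-39) and 0 to 2 (XY, d41-44) pedigree calls. Over time it gave 1 in XX controls and in XX DSD gonads, 0 in XY controls and 1 to 2 in XY littermates, and 0 in the interactions. Counts over all loci moved further: for XY littermates over XY controls at d41-44, 11.2% of loci were called, against 0.112% without the filter and 33% with litter as a block, and at d37-39 1.29%, against 0.111% with the block, 9.32% of named loci and 12.7% with the shared spread. The median of all loci was 0.277, 0.345 and 0.633 in comparisons of XY littermates at d37-39, beside 0.01, -0.01 and -0.11 over named loci.

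*LAMA3* at d44 in controls was called with a pseudocount of 0.1 (2.01), without the filter or trend, with the shared spread and over named loci. The named-locus, rescaling and 4-library alternatives were chosen after seeing the data. Rescaling over all loci was not run because 35 libraries had a median of 0, litter could not be fitted as a block for controls at d44 (1 litter), and the gene-annotated table was not used because its identifiers are not paired with symbols. No paired analysis was possible because replicate numbers were given in accession order only and pair no embryos. Litters, which embryos of both sexes share, were fitted as a random block instead. Depth limits *LAMA3* most, with values down to 0.0211 FPKM.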

Other observations

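The locus on the strand opposite to *LAMA1* lay between 0 and 4.05 FPKM in all libraries, the highest in XY control d37-39 replicate 2. The locus opposite to *NID1*, which held 144 exon bases against 7083 for *NID1*, was listed at 0 in all but 4 libraries. It stood at 3.42 FPKM in XY control d37-39 replicate 2 and at 6.39, 1.9 and 130 FPKM in XY littermate d37-39 replicates 1, 2 and 4. *NID1* itself was 51.5, 62.7, 66.7 and 49.5 FPKM in those libraries. Both measurements come from unstranded reads, so the split between the strands rests on the authors' assembly.

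*FREM1*, the basement membrane component with the lowest adjusted p between control sexes at d37-39, was 30.2 FPKM in the XX and 27.5 FPKM in the XY pool of d34, single libraries that were not tested, and 20.5 to 33.6 and 3.2 to 5.47 FPKM in XX and XY controls at d37-39.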
